A study of Homo sapiens with 12 samples.

Results

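Locked nucleic acids (LNAs) against mitochondrial tRNAs were set against a control LNA in MDA-MB-231 cells, an established human breast cancer line, and the genes that moved the same way under every tRNA LNA are described here. Cells received 20 nM of mtAsn-1 LNA, mtAsn-2 LNA, mtLys LNA or control LNA by lipid transfection and were collected on day 2, so the control cells had been transfected as well. The mtAsn LNAs were directed at the mitochondrial asparagine tRNA and the mtLys LNA at the mitochondrial lysine tRNA, per the labels. All 12 libraries of the series were used, with 9 tRNA LNA libraries (3 per LNA) and 3 control LNA libraries. A gene was counted as shared where edgeR's quasi-likelihood test called it in each of the 3 LNA groups against control (p under 0.05 after Benjamini-Hochberg adjustment over all genes tested) with the same sign in all 3. Of 52859 genes, 16051 had enough reads to be tested, and 3772 of these were shared, 1730 higher and 2042 lower. The 3 comparisons use the same control libraries, so a deviation of those libraries enters all of them, and 1 cell line and 1 control LNA stand behind every value. No label tells whether the replicates of a group are separate cultures, and the p-values therefore measure only a spread between libraries that may be technical.

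Mitochondria translate the proteins of their own small genome with a private set of tRNAs that are encoded in that genome, each charged by a matching aminoacyl-tRNA synthetase. In mammalian cells, trouble in mitochondrial translation or respiration is known to reach the nucleus through the integrated stress response, in which the transcription factor ATF4 raises genes of amino acid uptake and synthesis. FOXO factors, NRF2, SREBP2 and NF-kB are further transcription factors that tie gene expression to nutrients, oxidants, sterols and inflammatory signals. An LNA is a chemically stiffened antisense oligonucleotide that pairs tightly with its target RNA. MDA-MB-231 is a triple-negative, mesenchymal-like line.

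The targeted tRNAs are shown because they are what the LNAs have in common, namely tRNAs of the mitochondrial genome. Both were read from the GENCODE transcripts of the GRCh38 build, as the DNA sense strand, 5′ to 3′, with the anticodon in capitals. MT-TN, the asparagine tRNA gene, lies at chrMT:5657-5729 on the minus strand, and MT-TK, the lysine tRNA gene, at chrMT:8295-8364 on the plus strand. The stretches that the LNAs cover were not analysed here.
MT-TN: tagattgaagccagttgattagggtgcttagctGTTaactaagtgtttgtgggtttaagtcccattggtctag
MT-TK: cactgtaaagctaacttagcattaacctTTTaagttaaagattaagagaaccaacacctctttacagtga
MT-TN was counted 5, 2 and 2 times in the mtAsn-1 LNA libraries, 1, 1 and 3 times in the mtAsn-2 LNA libraries and 4, 5 and 1 times in the mtLys LNA libraries, against 3, 6 and 2 times in the control LNA libraries. Summed, this gave 24 reads in the 9 tRNA LNA libraries and 11 in the 3 control libraries, a rate ratio of 0.638 with a 95% counting interval of 0.301 to 1.44. A two-sided exact permutation test over libraries gave p = 0.255, so no difference of MT-TN was detectable at this depth. MT-TK had 2146 reads in the tRNA LNA libraries and 474 in the control libraries, a rate ratio of 1.32 (95% counting interval 1.20 to 1.46). With reads scaled to the total count of each library (CPM), it averaged 7.70 ± 1.71 CPM with mtAsn-1 LNA, 8.84 ± 1.89 CPM with mtAsn-2 LNA and 7.62 ± 0.496 CPM with mtLys LNA, against 6.15 ± 0.502 CPM with control LNA (SD, n = 3 each). The lowest tRNA LNA library, at 6.09 CPM, lay within the control range of 5.82 to 6.72 CPM. The exact permutation test on log2 CPM with 1 read added gave p = 0.0182, with 0.00909 the smallest p it can give, and p = 0.0727 without control replicate 2 or without control replicate 3. Both rate ratios and both permutation tests pool the 9 libraries of 3 LNAs, including LNAs not directed at the gene. The targeting LNAs were not tested alone. The CPM of cell type markers are on total counts as well, and those of all other genes on library sizes scaled with TMM factors. The intervals cover counting error only, and reads on a tRNA gene are not a measure of how much tRNA an LNA blocks.

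Total counts ran from 17978825 to 37708993 per library, and the 24 mitochondrial genes of the table, all tRNA or rRNA genes, held 0.881% to 1.23% of them. No pair of replicates agreed within sampling noise (chi-square per gene at least 2.43). All 8 mesenchymal-like markers checked for the line were detected, summing to 6732 to 7933 CPM in the tRNA LNA libraries and 7066 to 7508 CPM in the control libraries. Luminal and epithelial markers summed to 1133 to 1502 CPM in the tRNA LNA libraries and 1794 to 1888 CPM in the control libraries. ESR1, PGR, FOXA1 and CDH1 stayed under 1 CPM in every library, and KRT8 and KRT18, keratins with many near-identical pseudogenes, were lower in all 3 LNA groups. No other tested marker of this list was shared. KRT19 had 250 to 394 CPM in the tRNA LNA libraries and 336 to 345 CPM in the control libraries, and CLDN4 had 72.9 to 160 CPM and 101 to 117 CPM. Leukocyte markers summed to 234 to 323 CPM in the tRNA LNA libraries and 215 to 221 CPM in the control libraries, with 7 of the 12, PTPRC included, under 1 CPM in every library and the lysosomal gene CD68 higher in all 3 groups. Endothelial markers summed to 143 to 173 CPM in the tRNA LNA libraries and 163 to 177 CPM in the control libraries, and CDH5 and VWF were among the 5 of 8 under 1 CPM. In bulk RNA, fewer cells of a kind and less RNA per cell cannot be told apart.

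Against control, edgeR called 48.5% of the genes tested with mtAsn-1 LNA (24.3% higher and 24.2% lower), 51.1% with mtAsn-2 LNA (24.1% and 27.0%) and 48.5% with mtLys LNA (24.6% and 23.9%). Weighting the 3 LNA groups equally, edgeR called 4009 genes higher and 4306 lower than control, 25.0% and 26.8% of the genes tested and 51.8% in all. The rule of all 3 groups is narrower, and the shared genes were 10.8% of the tested genes for the rises and 12.7% for the falls. Another 560 genes (3.49%) were called in all 3 groups but not with 1 sign. Of the genes called by the equally weighted contrast, 4543 were not shared by this rule. The 9 tRNA LNA libraries lay wholly above the 3 control libraries in 1588 of the 1730 shared rises and wholly below them in 1903 of the 2042 shared falls. Over all tested genes, libraries stood apart in this way for 26.7%, 12.2% above and 14.5% below. Since a shared gene had to differ from control in each group, these shares restate the rule.

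Most shared changes were small. Taking for each gene its least change, the smallest of its 3 log2 fold changes by size, the median was 0.31 for the rises (quartiles 0.21 and 0.49) and 0.30 for the falls (quartiles 0.19 and 0.59). The least change was under 1.25-fold in 928 of the rises and 1077 of the falls. It reached at least 2-fold in 84 rises (0.523% of tested genes) and 242 falls (1.51%). Those larger changes sat mostly in weakly expressed genes, with a median mean log2 CPM of 0.16 for the rises and -0.52 for the falls, and 21 of the rises and 29 of the falls had a mean log2 CPM of at least 2. The filter needs enough reads only in as many libraries as 1 group holds, so a weakly expressed gene could enter through its higher group alone. Leaving out each of the 12 libraries in turn, 1168 of the rises and 1412 of the falls stayed shared every time.

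Among well-expressed protein-coding genes, the largest shared falls were led by BMF, which encodes a BH3-only member of the BCL2 family that promotes apoptosis. BMF had 9.90, 9.20 and 6.75 CPM in the mtAsn-1 LNA libraries, 4.13, 4.25 and 5.27 CPM in the mtAsn-2 LNA libraries and 9.25, 10.8 and 10.2 CPM in the mtLys LNA libraries, against 59.3, 58.2 and 53.03 CPM in the control LNA libraries. Every tRNA LNA library lay far below every control library, with mtAsn-2 LNA lowest. The equally weighted log2 fold change was -2.97 ± 0.069 (edgeR adjusted p = 1.4e-19), a 7.82-fold lower level, and the group changes were -2.75 under mtAsn-1 LNA, -3.65 under mtAsn-2 LNA and -2.50 under mtLys LNA. The size differed among the LNA groups (adjusted p = 6.45e-08). S100P, a small calcium-binding protein secreted by several carcinomas, had 2.22, 1.71 and 1.76 CPM in the mtAsn-1 LNA libraries, 3.83, 4.56 and 5.24 CPM in the mtAsn-2 LNA libraries and 5.98, 6.94 and 5.66 CPM in the mtLys LNA libraries, against 19.6, 17.9 and 16.7 CPM in the control LNA libraries. Its groups also did not overlap, and mtAsn-1 LNA was lowest at a log2 fold change of -3.26. TXNIP, which binds thioredoxin and restrains glucose uptake, had 63.3, 81.3 and 70.1 CPM in the mtAsn-1 LNA libraries, 76.97, 80.5 and 73.02 CPM in the mtAsn-2 LNA libraries and 99.2, 80.4 and 98.2 CPM in the mtLys LNA libraries, against 197.1, 220.8 and 213.98 CPM in the control LNA libraries. The lowest control library stood well above the highest tRNA LNA library, and the log2 fold change was -1.40 ± 0.072 (adjusted p = 1.48e-08).

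Some of the largest falls had nearly the same size under all 3 LNAs. VAMP2, a vesicle SNARE of membrane fusion, had 38.2, 35.5 and 34.6 CPM in the mtAsn-1 LNA libraries, 35.2, 37.3 and 38.4 CPM in the mtAsn-2 LNA libraries and 37.9, 36.9 and 38.1 CPM in the mtLys LNA libraries, against 94.8, 97.7 and 82.7 CPM in the control LNA libraries. Its group changes were -1.35 under mtAsn-1 LNA, -1.32 under mtAsn-2 LNA and -1.29 under mtLys LNA, and no difference among the LNA groups was called (adjusted p = 0.68). ADM5, a predicted relative of adrenomedullin, averaged 4.52 ± 1.60 CPM with mtAsn-1 LNA, 4.62 ± 0.219 CPM with mtAsn-2 LNA and 4.72 ± 0.512 CPM with mtLys LNA, against 19.2 ± 1.01 CPM with control LNA (SD, n = 3 each), with group changes of -2.05 under mtAsn-1 LNA, -2.06 under mtAsn-2 LNA and -2.02 under mtLys LNA. SLC22A23, a member of the organic ion transporter family, had a log2 fold change of -1.31 ± 0.10, and its size was not called different among the groups either (adjusted p = 0.339). The other genes among the 10 largest falls were TRIM52, a member of the TRIM family (-1.39 ± 0.054), RSRP1 (-1.35 ± 0.038), ALOX12, an arachidonate lipoxygenase (-1.53 ± 0.093), and AOC3, a cell-surface amine oxidase (-1.31 ± 0.09). TRIM52, RSRP1, SLC22A23 and ALOX12 overlap a gene on the opposite strand, and since the strandedness of the counting is not given, their reads cannot be told apart from those of that partner.

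Among the shared rises, chosen by the same rule, TNFSF15 had the largest least change. TNFSF15, a cytokine of the tumour necrosis factor family, had 5.57, 5.72 and 3.77 CPM in the mtAsn-1 LNA libraries, 8.84, 8.31 and 12.8 CPM in the mtAsn-2 LNA libraries and 4.39, 9.32 and 3.91 CPM in the mtLys LNA libraries, against 1.20, 0.845 and 0.909 CPM in the control LNA libraries. All 9 tRNA LNA libraries exceeded the highest control library, but they spread over 3.77 to 12.8 CPM, and the log2 fold change of 2.74 ± 0.45 (adjusted p = 0.000763) carries a wide error. EXTL2, a glycosyltransferase acting on heparan sulfate, had 28.6, 28.7 and 29.3 CPM in the mtAsn-1 LNA libraries, 34.4, 35.4 and 32.1 CPM in the mtAsn-2 LNA libraries and 27.6, 25.6 and 25.7 CPM in the mtLys LNA libraries, against 9.49, 10.2 and 11.1 CPM in the control LNA libraries. Its log2 fold change was 1.53 ± 0.06 (adjusted p = 9.39e-18), with no overlap between tRNA LNA and control libraries.

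EXOC4, a subunit of the exocyst that tethers secretory vesicles to the plasma membrane, had 74.1, 83.6 and 78.8 CPM in the mtAsn-1 LNA libraries, 34.8, 34.2 and 35.9 CPM in the mtAsn-2 LNA libraries and 79.9, 71.9 and 81.3 CPM in the mtLys LNA libraries, against 14.8, 15.6 and 15.7 CPM in the control LNA libraries. It rose in every group, but mtAsn-2 LNA libraries stood well below the other LNA libraries, and the size differed among the groups (adjusted p = 8.91e-17). DNHD1, which encodes a protein with a dynein heavy chain domain, had a log2 fold change of 1.81 ± 0.10, CACNA2D1, an auxiliary calcium channel subunit, 1.89 ± 0.10, and ZNF75D, a zinc finger gene, 1.38 ± 0.082. CD22, a lectin best known from B cells, averaged 9.44 ± 0.495 CPM with mtAsn-1 LNA, 9.29 ± 0.922 CPM with mtAsn-2 LNA and 11.4 ± 0.298 CPM with mtLys LNA, against 3.85 ± 0.372 CPM with control LNA (SD, n = 3 each). MYH15, a myosin heavy chain gene, changed by 1.24 ± 0.20 and MIG7 by 1.38 ± 0.11. RefSeq gave no type for MIG7, which was counted as protein-coding by its name alone. CACNA2D1, DNHD1, ZNF75D and EXOC4 overlap a gene on the opposite strand, with the same limit as above.

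**Figure D1:**
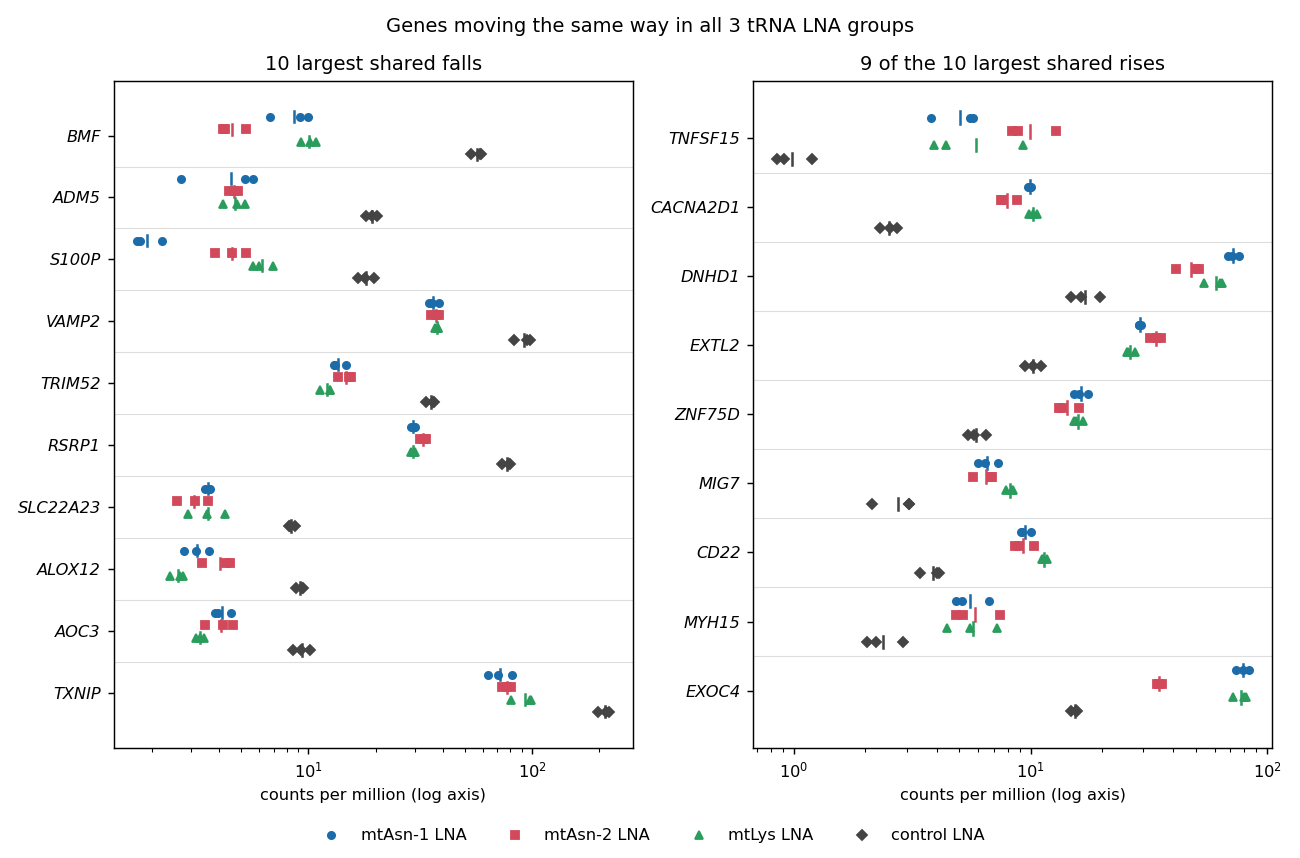
CPM of the 10 largest shared falls (left) and 9 of the 10 largest shared rises (right) on a log axis, 1 point per library, with mtAsn-1, mtAsn-2 and mtLys LNA above control LNA in each row and a tick at each group mean. In every gene shown the 3 control points (diamonds) stand apart from the 9 tRNA LNA points, by the rule that chose them.

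Promoter sequences of 3 of these genes are shown because BMF led the falls, TNFSF15 led the rises and TXNIP belongs to the pathway list with the highest share of falls. Each runs from 250 bases before to 50 bases after the RefSeq start site (GRCh38.p14), 5′ to 3′ on the gene's strand. Capitals mark matches of the motifs searched on both strands: GGGCGG (GC box), GTAAACA (FOXO), CACGNG followed by 5 bases of any kind and CACGNG again (carbohydrate response element), TGANTCA (AP-1) and GGAATG (TEAD). BMF lies at chr15:40108830-40109129 on the minus strand, TXNIP at chr1:145996530-145996829 on the minus strand and TNFSF15 at chr9:114792481-114792780 on the minus strand.
BMF: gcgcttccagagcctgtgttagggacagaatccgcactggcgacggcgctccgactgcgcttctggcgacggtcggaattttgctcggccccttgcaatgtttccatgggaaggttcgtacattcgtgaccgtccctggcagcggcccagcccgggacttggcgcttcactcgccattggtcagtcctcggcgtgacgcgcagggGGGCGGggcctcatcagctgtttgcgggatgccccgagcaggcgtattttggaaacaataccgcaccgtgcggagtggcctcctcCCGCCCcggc
TXNIP: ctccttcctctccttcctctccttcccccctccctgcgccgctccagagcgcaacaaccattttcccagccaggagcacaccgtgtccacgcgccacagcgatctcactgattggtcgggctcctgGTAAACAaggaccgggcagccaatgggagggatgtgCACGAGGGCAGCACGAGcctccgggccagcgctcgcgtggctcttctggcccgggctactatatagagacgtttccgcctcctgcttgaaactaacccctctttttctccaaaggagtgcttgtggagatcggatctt
TNFSF15: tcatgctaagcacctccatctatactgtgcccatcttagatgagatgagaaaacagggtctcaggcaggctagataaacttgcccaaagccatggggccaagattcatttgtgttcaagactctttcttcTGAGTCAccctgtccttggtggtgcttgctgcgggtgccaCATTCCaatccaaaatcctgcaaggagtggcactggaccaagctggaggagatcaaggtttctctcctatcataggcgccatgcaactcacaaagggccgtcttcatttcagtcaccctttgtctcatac
BMF held 2 GC boxes. TXNIP held 1 FOXO match and 1 carbohydrate response element, the pattern through which glucose is known to raise TXNIP, which was added to the search after this promoter had been read. TNFSF15 held 1 AP-1 and 1 TEAD match. A carbohydrate response element was found in 0.153% of the 10463 promoters of tested genes, in 3 of the 1397 promoters of shared falls and in 1 of the 1321 promoters of shared rises. The FOXO pattern was in 2.22% of all promoters, 2.72% of the falls and 1.29% of the rises. CACGTG, the E-box, was in 9.93% of all promoters, 13.1% of the falls and 9.69% of the rises, and the GC box in 69.9%, 75.0% and 71.5% of them. These are matches of letters in the window, not measured binding sites, and no difference between the shares was tested.

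Long non-coding RNA genes, by their RefSeq type, were more often shared falls than shared rises. Of 1353 such genes tested, 205 fell (15.2%) and 92 rose (6.80%) in all 3 groups, against 1702 falls (13.3%) and 1581 rises (12.3%) among 12836 genes typed as protein-coding. They held 98 of the 242 falls of at least 2-fold and 24 of the 84 rises of that size. Some of these may have entered the test through their reads in 1 group alone. Over all gene types, 29 of the 242 falls and 21 of the 84 rises had a mean log2 CPM of at least 2. The median mean log2 CPM of long non-coding RNA genes was -0.24, against 4.89 for protein-coding genes, so they were measured with far fewer reads. Among all tested genes with a mean log2 CPM under 0.24, of any type, 7.41% were lower and 2.40% higher in all 3 groups. Of those genes, 160 fell and 44 rose at least 2-fold. Whether the lean of long non-coding RNA genes goes beyond their low expression was not tested. For 586 of the tested genes no type was given, and 75 of these (12.8%) fell and 28 (4.78%) rose in all 3 groups. LINC01089, a long non-coding RNA, had 4.58, 5.32 and 5.53 CPM in the mtAsn-1 LNA libraries, 2.67, 2.84 and 4.20 CPM in the mtAsn-2 LNA libraries and 6.25, 5.83 and 5.32 CPM in the mtLys LNA libraries, against 29.6, 29.3 and 26.2 CPM in the control LNA libraries. Its log2 fold change was -2.63 ± 0.078 (adjusted p = 1.11e-19), with tRNA LNA and control libraries wide apart. The uncharacterised LOC105372709 fell by a similar amount in each group (-1.92 under mtAsn-1 LNA, -2.03 under mtAsn-2 LNA and -2.05 under mtLys LNA). Among the rises, LOC105376374 changed by 1.02 under mtAsn-1 LNA, 1.002 under mtAsn-2 LNA and 1.02 under mtLys LNA, and LOC102723480 and LOC105371453, each of which overlaps an opposite-strand gene, by 1.66 ± 0.16 and 1.87 ± 0.11. No type was given for LOC105371453.

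The small nucleolar RNA host genes (SNHG genes), whose introns carry the small RNAs that guide ribosomal RNA modification, fell more often than they rose. Of 24 measured SNHG genes, 14 were lower in all 3 groups and 1, SNHG8, was higher, beside 12.7% lower and 10.8% higher over all genes tested. SNHG19 led them with 6.85, 6.63 and 5.71 CPM in the mtAsn-1 LNA libraries, 3.66, 4.22 and 4.81 CPM in the mtAsn-2 LNA libraries and 6.15, 5.65 and 7.15 CPM in the mtLys LNA libraries, against 43.6, 41.1 and 30.6 CPM in the control LNA libraries. No tRNA LNA library came near a control library, and the log2 fold change was -2.81 ± 0.093 (adjusted p = 4.32e-14). SNHG20 had 2.91, 2.63 and 3.05 CPM in the mtAsn-1 LNA libraries, 4.51, 5.22 and 4.23 CPM in the mtAsn-2 LNA libraries and 2.78, 2.99 and 2.57 CPM in the mtLys LNA libraries, against 11.7, 15.2 and 11.7 CPM in the control LNA libraries. All tRNA LNA libraries of SNHG20 were again below all control libraries, at a log2 fold change of -1.95 ± 0.091. SNHG10 (-1.44 ± 0.061) and SNHG21 (-1.42 ± 0.10) were also at least 2-fold lower in every group. SNHG4 showed how the groups could differ in size, with changes of -1.46 under mtAsn-1 LNA, -0.54 under mtAsn-2 LNA and -1.41 under mtLys LNA (adjusted p for the difference among the groups = 8.04e-11). Falls of SNHG3 (-0.87 ± 0.047), SNHG1 (-0.44 ± 0.04) and SNHG29 (-0.31 ± 0.029), which are among the more abundant members, were smaller. SNHG5, also abundant at a mean log2 CPM of 7.10, was called higher with mtAsn-1 LNA (0.29) and mtAsn-2 LNA (0.35). It was not called with mtLys LNA (-0.002). SNHG16 was called higher with mtAsn-2 LNA and lower with mtLys LNA (-0.11 under mtAsn-1 LNA, 0.37 under mtAsn-2 LNA and -0.32 under mtLys LNA). Under a stricter filter (a mean log2 CPM of 2 or more, and no library under 1 CPM in at least 1 group), 10 members remained lower in all 3 groups, and the rise of SNHG8 was not called in every group without mtLys replicate 3.

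**Figure D2:**
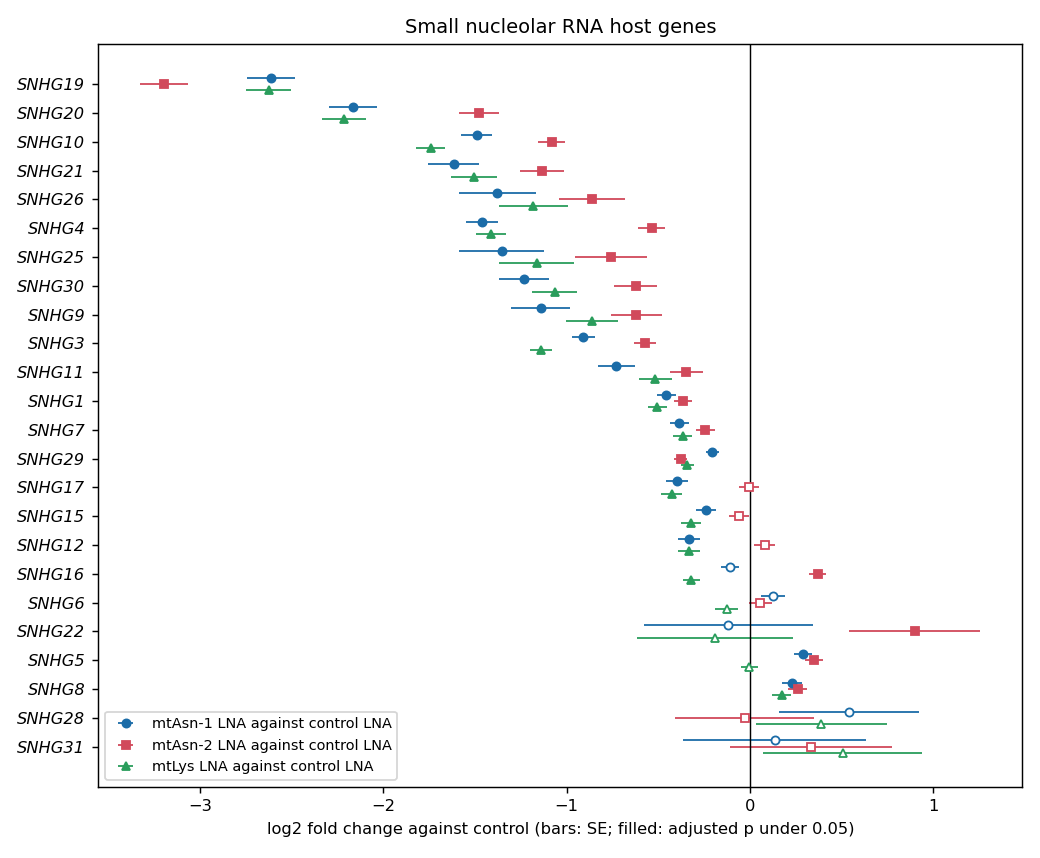
Log2 fold change against control LNA of the 24 SNHG genes, with 1 point per LNA group, bars of 1 SE and filled points where the adjusted p was under 0.05. The upper 14 genes have 3 filled points left of 0, and SNHG19 at the top reaches -3.20 with mtAsn-2 LNA.

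Lists of genes by pathway were read against the share over all genes tested, and the 4 with the highest shares of shared falls held no shared rise. These were FOXO targets with insulin-pathway feedback genes (15 of 23 lower in all 3 groups), ATF4 targets with the integrated stress response (20 of 33), cholesterol synthesis and uptake (12 of 24) and NRF2 targets (11 of 28). The highest shares of shared rises, with no shared fall, were found in exocyst subunits (4 of 9), NF-kB targets with inflammatory mediators (11 of 26) and extracellular matrix and mesenchymal genes (11 of 29). Over all genes tested, 12.7% were lower and 10.8% higher in all 3 groups. By the equally weighted contrast, 6 exocyst subunits were called higher and 3 lower. In the NF-kB list 21 were called higher and 3 lower, and in the matrix list 17 and 4. That contrast called 25.0% of all genes tested higher and 26.8% lower. The median log2 fold change of the equally weighted contrast was -0.58, -0.47, -0.23 and -0.24 in the first 4 lists and 0.19, 0.78 and 0.40 in the other 3, beside -0.00 over all tested genes. For FOXO targets the median was -0.36 under mtAsn-1 LNA, -0.69 under mtAsn-2 LNA and -0.47 under mtLys LNA, and for the cholesterol list it was -0.25, -0.29 and -0.20 in the same order. The median of ATF4 targets was -0.55 under mtAsn-1 LNA, -0.26 under mtAsn-2 LNA and -0.64 under mtLys LNA, and that of NRF2 targets was -0.16, -0.56 and -0.15. NF-kB targets had medians of 0.54, 1.47 and 0.32, matrix genes 0.45, 0.04 and 0.57, and exocyst subunits 0.21, 0.12 and 0.24. Of the list members named below, FOXO1, FOXO3, FOXO4, BBC3, CDKN1B, CCNG2, RICTOR, TNFSF10, ASNS, SLC7A5, MVK, IDI1, CYP51A1, ME1, FTH1, IL6, LIF, TGFBI, ITGB1, TIMP1, NR4A1, FOSL2, FARS2, CARS2 and TRNT1 overlap an opposite-strand gene, so part of their reads may belong to it.

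**Figure D3:**
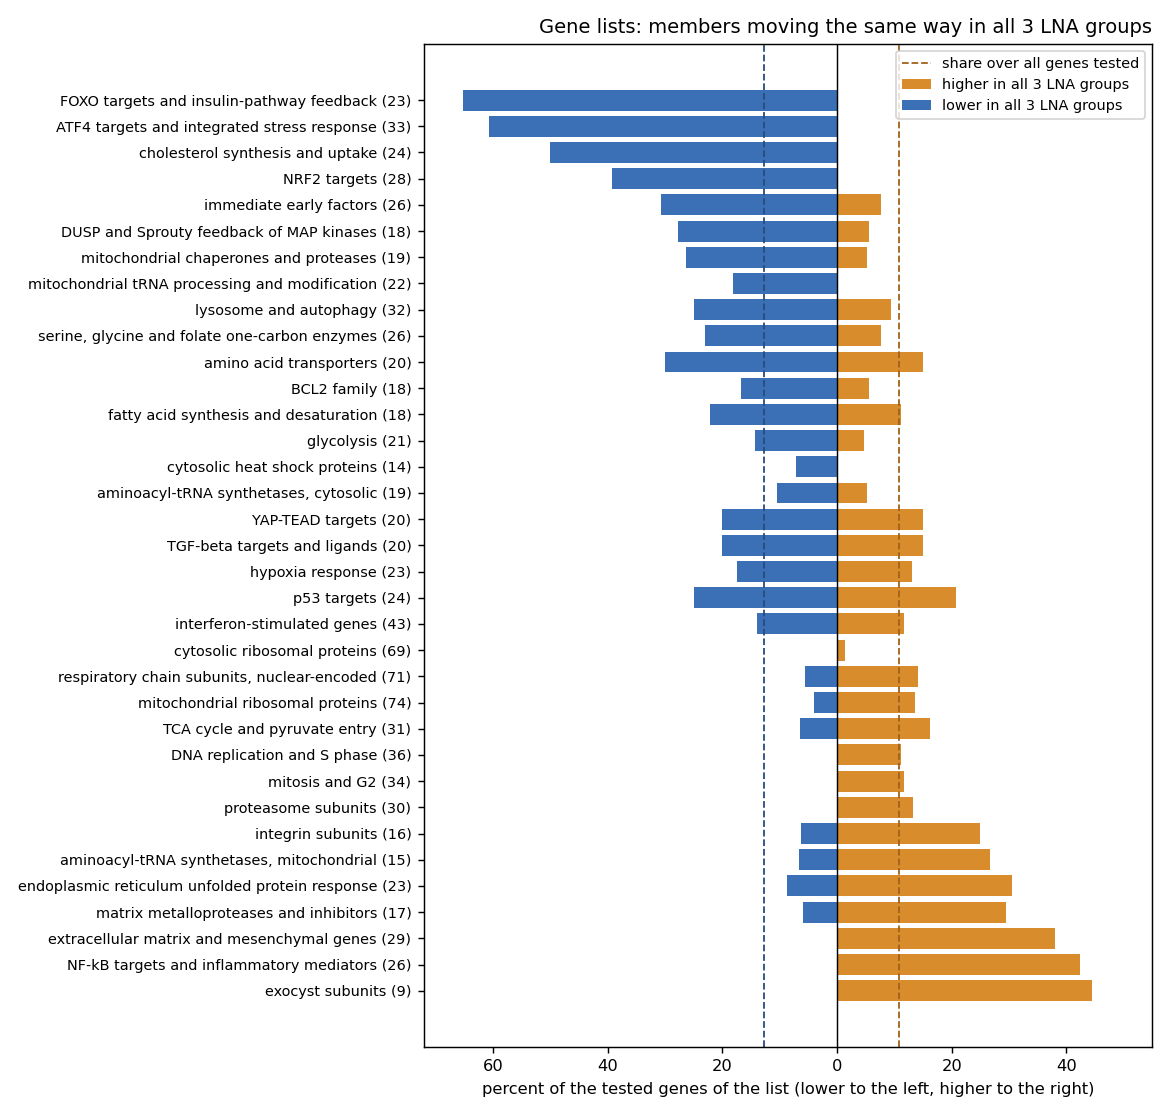
Share of each list's tested genes (number in parentheses) that were lower (left) or higher (right) in all 3 LNA groups, with dashed lines at the shares over all genes tested, 12.7% lower and 10.8% higher. FOXO, ATF4, cholesterol and NRF2 lists reach furthest to the left, and exocyst, NF-kB and extracellular matrix lists furthest to the right.

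FOXO factors raise genes of growth arrest, apoptosis and insulin sensitivity when insulin and AKT signalling are low. The factors FOXO1 and FOXO3 were themselves lower, with log2 fold changes of -0.83 and -0.50, while FOXO4 was not called (0.25, adjusted p = 0.0552). The pro-apoptotic targets BCL2L11 (BIM) and BBC3 (PUMA) fell, and BCL2L11 had 10.99, 10.1 and 10.96 CPM in the mtAsn-1 LNA libraries, 12.9, 12.9 and 12.6 CPM in the mtAsn-2 LNA libraries and 11.3, 12.01 and 11.99 CPM in the mtLys LNA libraries, against 21.6, 22.5 and 20.6 CPM in the control LNA libraries. No tRNA LNA library overlapped control, and the change of BCL2L11 was -0.88 ± 0.055 (adjusted p = 1.89e-13). For BBC3 it was -0.72, and its shared call ended with DESeq2, at an adjusted p under 0.01, and without any 1 of the mtAsn-2 libraries or control replicate 1. Of 18 tested BCL2 family genes, 3 (16.7%) were lower and 1 (5.56%) was higher in all 3 groups, and 3 had mixed signs. The shares over all genes tested were 12.7%, 10.8% and 3.49%. Without control replicate 3 the rises of this family numbered 0. The cell cycle brakes CDKN1B (-0.58) and CCNG2 (-0.58) were also lower. KLHL24, an adaptor of a ubiquitin ligase, had 23.9, 25.3 and 21.9 CPM in the mtAsn-1 LNA libraries, 19.5, 17.7 and 20.03 CPM in the mtAsn-2 LNA libraries and 21.8, 20.5 and 21.1 CPM in the mtLys LNA libraries, against 47.5, 44.4 and 42.9 CPM in the control LNA libraries. Every group stood near a log2 fold change of -1 (-0.93 under mtAsn-1 LNA, -1.24 under mtAsn-2 LNA and -1.09 under mtLys LNA), and KLHL24, which also stands in the ATF4 list, overlaps an opposite-strand gene. The arrestin-like pair TXNIP and ARRDC4, both known glucose-responsive genes, fell together, ARRDC4 with a log2 fold change of -1.26 ± 0.14 at a level of 1.08 to 2.09 CPM in the tRNA LNA libraries. Of the insulin pathway, the adaptor IRS2 (-0.61) and the mTORC2 subunit RICTOR (-0.22) were lower, while IRS1 (-0.05, adjusted p = 0.27) and TRIB2 (0.05, adjusted p = 0.33) were not called. TNFSF10, which encodes the death ligand TRAIL, was the only member called higher by the equally weighted contrast (0.32), and it was not called in the mtAsn-1 LNA group.

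**Figure D4:**
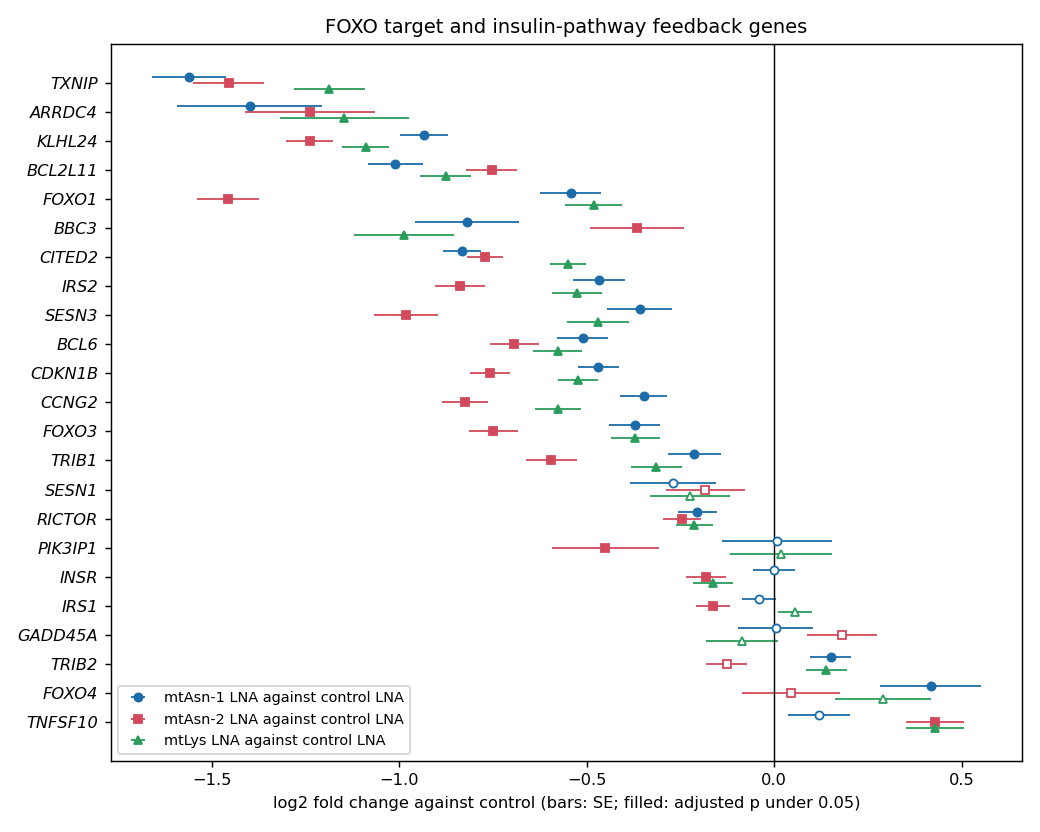
Log2 fold change against control LNA of the 23 tested genes of the FOXO and insulin-pathway list, with 1 point per LNA group, bars of 1 SE and filled points where the adjusted p was under 0.05. The 15 genes with all 3 points filled and left of 0 include FOXO1, at -0.54 under mtAsn-1 LNA, -1.46 under mtAsn-2 LNA and -0.48 under mtLys LNA.

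ATF4 itself, the central factor of the integrated stress response, was lower in all 3 groups by a small amount (-0.28 under mtAsn-1 LNA, -0.09 under mtAsn-2 LNA and -0.43 under mtLys LNA). Its shared call ended with RLE factors, with no filter on low counts, at an adjusted p under 0.01, with each LNA group fitted with control alone, without control replicate 2 and without mtAsn-2 replicate 1 or 2 or mtLys replicate 2. Its secreted target GDF15, a stress hormone, had 9.76, 12.4 and 11.6 CPM in the mtAsn-1 LNA libraries, 15.4, 15.8 and 13.8 CPM in the mtAsn-2 LNA libraries and 9.27, 9.55 and 8.90 CPM in the mtLys LNA libraries, against 38.3, 32.1 and 25.4 CPM in the control LNA libraries. All tRNA LNA libraries lay below the lowest control library, and the log2 fold change was -1.47 ± 0.091 (adjusted p = 8.1e-10). ATF3 (-1.50) and TRIB3 (-0.65), a pseudokinase that restrains ATF4, were lower, as were NUPR1 (-1.51) and the mTORC1 inhibitor DDIT4 (-0.54). Amino acid synthesis was represented by PHGDH (-1.06) and PSAT1 (-0.61) of the serine pathway, CTH (-1.08) of cysteine synthesis and ASNS (-0.93), asparagine synthetase, which was weakly expressed. The transporters SLC7A5 (-0.72) and SLC3A2 (-0.90), which together import large neutral amino acids, and the glutamine carriers SLC1A5 (-0.43) and SLC38A2 (-0.47) were lower as well. For SLC1A5 the shared call ended with DESeq2, with no filter, at an adjusted p under 0.01, with each LNA group fitted with control alone, and without any 1 of the mtAsn-2 libraries or control replicate 1 or 2. The 20 shared falls all differed in size among the LNA groups, beside 46.2% of the shared falls over all genes tested. PHGDH, for example, changed by -1.21 under mtAsn-1 LNA, -0.42 under mtAsn-2 LNA and -1.57 under mtLys LNA. Of the 33 tested genes, 32 differed among the LNA groups, beside 52.5% of all genes tested. Another count, of genes called in all 3 groups with mixed signs, was 4, beside 3.49%. Called higher were 4 genes with mtAsn-1 LNA, 6 with mtAsn-2 LNA and 1 with mtLys LNA. The shares over all genes tested were 24.3%, 24.1% and 24.6%. Called lower were 25, 21 and 27 in the same order, beside 24.2%, 27.0% and 23.9%. MAT2A, which makes the methyl donor S-adenosylmethionine, had 210.4, 192.97 and 217.6 CPM in the mtAsn-1 LNA libraries, 217.9, 217.5 and 215.6 CPM in the mtAsn-2 LNA libraries and 216.8, 219.4 and 228.6 CPM in the mtLys LNA libraries, against 426.8, 469.1 and 415.9 CPM in the control LNA libraries. All tRNA LNA libraries were far below control and close to each other (-1.08 under mtAsn-1 LNA, -1.01 under mtAsn-2 LNA and -0.98 under mtLys LNA), with no difference among the groups called (adjusted p = 0.181). MAT2A overlaps the opposite-strand gene GGCX. FPGS, which retains folates in the cell, was higher (0.45 ± 0.036).

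NRF2 targets that fell included NQO1, a quinone reductase often used to follow NRF2 activity, with 252.7, 235.5 and 265.6 CPM in the mtAsn-1 LNA libraries, 162.1, 147.4 and 161.5 CPM in the mtAsn-2 LNA libraries and 204.4, 210.9 and 223.6 CPM in the mtLys LNA libraries, against 429.1, 437.4 and 454.3 CPM in the control LNA libraries. The control libraries stood above all others and mtAsn-2 LNA was lowest, giving a log2 fold change of -1.11 ± 0.036 (adjusted p = 1.44e-19). GSR, glutathione reductase, had 37.99, 42.5 and 42.8 CPM in the mtAsn-1 LNA libraries, 41.1, 41.2 and 37.8 CPM in the mtAsn-2 LNA libraries and 43.9, 44.6 and 45.3 CPM in the mtLys LNA libraries, against 70.4, 74.6 and 67.7 CPM in the control LNA libraries. Its groups were closer together, at -0.79 under mtAsn-1 LNA, -0.83 under mtAsn-2 LNA and -0.67 under mtLys LNA. TXNRD1, thioredoxin reductase, changed by -0.73 and the NADPH producer ME1 by -0.51. The ferritin chains FTL (-0.72) and FTH1 (-0.30), which have many pseudogenes, were lower in all 3 groups too. The call of FTH1 ended at an adjusted p under 0.01, with each LNA group fitted with control alone, and without mtAsn-2 replicate 3, mtAsn-1 replicate 2 or 3, or control replicate 1 or 2.

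Along the cholesterol pathway, HMGCS1 at its start had 53.2, 49.8 and 53.03 CPM in the mtAsn-1 LNA libraries, 59.1, 56.5 and 54.2 CPM in the mtAsn-2 LNA libraries and 53.2, 56.04 and 57.7 CPM in the mtLys LNA libraries, against 78.9, 93.6 and 87.9 CPM in the control LNA libraries. Its log2 fold change was -0.67 ± 0.044 (adjusted p = 4.51e-13), of similar size in every group and without overlap with control. MVK (-0.47), IDI1 (-0.44), SQLE (-0.46), CYP51A1 (-0.55), MSMO1 (-0.64), SC5D (-0.61 ± 0.058) and DHCR7 (-0.34), enzymes further along it, were lower in all 3 groups, as was INSIG1 (-0.39), the sterol-sensing brake. None of the 24 tested genes of the list was higher in all 3 groups.

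Inflammatory mediators made up the list with the highest median. CSF2, the growth factor GM-CSF, had 41.5, 79.4 and 47.1 CPM in the mtAsn-1 LNA libraries, 121.1, 127.4 and 115.8 CPM in the mtAsn-2 LNA libraries and 44.6, 51.7 and 50.1 CPM in the mtLys LNA libraries, against 27.7, 23.5 and 20.6 CPM in the control LNA libraries. All tRNA LNA libraries exceeded the highest control library, the mtAsn-2 LNA libraries by the most, and the equally weighted log2 fold change was 1.51 ± 0.20 (adjusted p = 0.000225; difference among the groups, adjusted p = 0.000895). IL1B, a pyrogenic cytokine, had 2.66, 4.46 and 2.66 CPM in the mtAsn-1 LNA libraries, 2.67, 2.999 and 2.77 CPM in the mtAsn-2 LNA libraries and 2.40, 1.93 and 1.79 CPM in the mtLys LNA libraries, against 0.859, 0.780 and 0.855 CPM in the control LNA libraries. It stood apart from control in every library at a low level (1.67 ± 0.19, adjusted p = 2.44e-08). The chemokines CXCL1 (1.55 under mtAsn-1 LNA, 2.28 under mtAsn-2 LNA and 0.89 under mtLys LNA) and CXCL8 (1.48 under mtAsn-1 LNA, 2.12 under mtAsn-2 LNA and 0.72 under mtLys LNA), the colony-stimulating factor CSF3 (1.48 under mtAsn-1 LNA, 2.83 under mtAsn-2 LNA and 0.95 under mtLys LNA), IL6 (0.68 under mtAsn-1 LNA, 1.64 under mtAsn-2 LNA and 0.63 under mtLys LNA) and the prostaglandin synthase PTGS2 (1.55 under mtAsn-1 LNA, 1.88 under mtAsn-2 LNA and 0.90 under mtLys LNA) rose too, each with its largest change under mtAsn-2 LNA. For CSF3 the difference among the groups had an adjusted p of 9.68e-10. CXCL1 has close paralogs, so part of its count may be shared. LIF was higher by 0.41 and the signalling adaptor TRAF1 by 1.06. The summed leukocyte markers given above were also higher in the tRNA LNA libraries, but most of the sum came from LAPTM5 and CD68. LAPTM5 was not shared, with 131 to 214 CPM in the tRNA LNA libraries and 135 to 140 CPM in the control libraries. CD68 had 91.5 to 115 CPM and 74.0 to 78.4 CPM in the same order. PTPRC, the defining leukocyte gene, did not exceed 0.334 CPM in the tRNA LNA libraries and 0.319 CPM in the control libraries. The part of other cell types in these rises was not tested.

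In the matrix list, 19 of 29 genes were called higher and 4 lower with mtAsn-1 LNA, beside 24.3% and 24.2% of all genes tested. With mtAsn-2 LNA 12 were called higher and 6 lower, beside 24.1% and 27.0%. With mtLys LNA 22 were called higher and 1 lower, beside 24.6% and 23.9%. COL6A3, a collagen VI chain, had 68.1, 85.3 and 72.2 CPM in the mtAsn-1 LNA libraries, 73.9, 92.3 and 83.6 CPM in the mtAsn-2 LNA libraries and 82.7, 64.9 and 73.02 CPM in the mtLys LNA libraries, against 36.04, 34.2 and 45.2 CPM in the control LNA libraries. Control libraries varied but stayed below all others, and the group changes were 0.98 under mtAsn-1 LNA, 1.13 under mtAsn-2 LNA and 0.95 under mtLys LNA. LAMA4, a laminin chain, had 17.5, 16.7 and 17.1 CPM in the mtAsn-1 LNA libraries, 14.6, 15.2 and 14.2 CPM in the mtAsn-2 LNA libraries and 19.2, 17.99 and 18.3 CPM in the mtLys LNA libraries, against 7.95, 7.70 and 7.16 CPM in the control LNA libraries. It rose by a similar amount in every group (1.16 under mtAsn-1 LNA, 0.94 under mtAsn-2 LNA and 1.28 under mtLys LNA) and overlaps opposite-strand genes. TNC, tenascin C (1.23), COL4A5 (1.43), LAMB1 (0.50), and TGFBI (0.63) were higher too. Among receptors for matrix, ITGA2, a collagen-binding integrin chain, had 515.6, 574.2 and 540.2 CPM in the mtAsn-1 LNA libraries, 429.6, 461.9 and 436.8 CPM in the mtAsn-2 LNA libraries and 567.1, 566.6 and 538.03 CPM in the mtLys LNA libraries, against 324.7, 294.8 and 303.7 CPM in the control LNA libraries. Its rise (0.73 ± 0.038, adjusted p = 2.42e-15) went with rises of ITGA3 (0.56), ITGB1 (0.47) and ITGA10 (1.02 ± 0.16), while ITGB2, the chain of leukocyte integrins, which overlaps an antisense gene, fell (-0.80 ± 0.043). In all, 4 of 16 tested integrin genes (25.0%) were higher and 1 (6.25%) was lower in all 3 groups, beside 10.8% and 12.7% of all genes tested. Of the proteases, PLAUR, the urokinase receptor (0.66), and ADAM19 (0.79) were higher and the inhibitor TIMP1 was lower (-0.33), among 5 higher (29.4%) and 1 lower (5.88%) of 17.

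Immediate early factors, which respond to growth signals within minutes, split. NR4A3, an orphan nuclear receptor, had 0.739, 0.286 and 0.359 CPM in the mtAsn-1 LNA libraries, 1.73, 1.25 and 1.34 CPM in the mtAsn-2 LNA libraries and 0.404, 0.410 and 0.521 CPM in the mtLys LNA libraries, against 2.91, 4.19 and 2.51 CPM in the control LNA libraries. It was lowest with mtLys and mtAsn-1 LNA and its log2 fold change was -2.30 ± 0.18 (adjusted p = 2.37e-11). NR4A1 (-2.27 under mtAsn-1 LNA, -0.35 under mtAsn-2 LNA and -2.29 under mtLys LNA) and FOSB (-1.28 under mtAsn-1 LNA, -0.40 under mtAsn-2 LNA and -1.64 under mtLys LNA) followed the same order, with the smallest fall in the mtAsn-2 LNA group. The shared call of FOSB ended without mtAsn-2 replicate 3 or control replicate 2, and FOSB was too weakly expressed for the stricter filter. FOSL2 fell alike in all 3 (-0.57 under mtAsn-1 LNA, -0.54 under mtAsn-2 LNA and -0.55 under mtLys LNA). JUN and MYC were the shared rises, at 0.40 ± 0.05 and 0.32 ± 0.036. In all, 8 of 26 members (30.8%) fell and 2 (7.69%) rose in all 3 groups, beside 12.7% and 10.8% of all genes tested. Another 2 had mixed signs, beside 3.49% of all genes tested, and 14 were not called in every group. The median of the list was -0.37 under mtAsn-1 LNA, -0.02 under mtAsn-2 LNA and -0.38 under mtLys LNA. Under the stricter filter, 5 falls were counted.

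The synthetases of the targeted tRNAs changed little. The mitochondrial asparaginyl-tRNA synthetase NARS2 had a log2 fold change of 0.08 ± 0.063 (adjusted p = 0.31), in a gene with an opposite-strand partner. KARS1, which charges lysine tRNA in both cytosol and mitochondria, changed by -0.10 ± 0.036 (adjusted p = 0.0169), and this call ended without control replicate 2 (adjusted p = 0.418), with no filter on low counts (adjusted p = 0.0586) and with the 9 tRNA LNA libraries as 1 group (adjusted p = 0.0895). Over all genes tested, 10.8% were higher and 12.7% lower in all 3 groups. Of 15 mitochondrial synthetases, 4 (26.7%) were higher in all 3 groups, among them FARS2 (1.23) and AARS2 (0.48), and 1 (6.67%), CARS2 (-0.43), was lower. Of 22 mitochondrial tRNA processing and modification genes none was higher and 4 (18.2%) were lower, or 2 at an adjusted p under 0.01. The 4 included TRNT1, which adds the CCA end (-0.47), and NSUN2, an RNA methyltransferase (-0.41). Of 71 nuclear-encoded respiratory chain subunits, 10 (14.1%) were higher and 4 (5.63%) lower, with a median of 0.02. Of 74 mitochondrial ribosomal proteins, 10 (13.5%) were higher and 3 (4.05%) lower, with a median of 0.01. The 4 falls of the respiratory chain numbered 0 without control replicate 2, 2 without control replicate 3 and 2 without mtLys replicate 2. Of 69 cytosolic ribosomal protein genes, 1 (1.45%) was higher in all 3 groups and none was lower. With mtAsn-1 LNA 18 were called higher and 2 lower, beside 24.3% and 24.2% of all genes tested. With mtAsn-2 LNA 42 were called higher and 2 lower, beside 24.1% and 27.0%. With mtLys LNA 1 was called higher and 30 lower, beside 24.6% and 23.9%. The medians of these 69 genes were 0.04 under mtAsn-1 LNA, 0.12 under mtAsn-2 LNA and -0.09 under mtLys LNA. Of the 69, 64 differed among the LNA groups, beside 52.5% of all genes tested. The many pseudogenes of ribosomal protein genes can share reads.

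Of 23 genes of the unfolded protein response of the endoplasmic reticulum, 7 were higher in all 3 groups (30.4%, beside 10.8% of all genes tested). Among them were HSPA5, the chaperone BiP (0.30), and PDIA4 (0.40). The stress factor XBP1 (-0.24) and HERPUD1 (-0.48) were lower (8.70%, beside 12.7%), 2 more had mixed signs, and the remaining 12 were not called in every group. Interferon-stimulated genes were shared about as often as all genes tested, with 5 of 43 higher (11.6%, beside 10.8%) and 6 lower (14.0%, beside 12.7%). The rises included DDX58, the RNA sensor RIG-I (0.50 ± 0.047), and the falls ISG15 (-0.77 ± 0.044) and IFITM1 (-0.98 ± 0.075). Without control replicate 1 the rises numbered 3. Of 32 lysosome and autophagy genes, 8 were lower in all 3 groups (25.0%, beside 12.7%), among them ULK1, the kinase that starts autophagy (-0.72). Another 3 were higher (9.38%, beside 10.8%).

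The size of a shared change often depended on the LNA. An F test among the 3 LNA groups, which needs no control library, called 1834 of the 3772 shared genes, 48.6% of them, beside 52.5% of all tested genes. Among the called ones the largest change fell to mtAsn-2 LNA in 366 rises and 455 falls, to mtAsn-1 LNA in 313 rises and 264 falls and to mtLys LNA in 211 rises and 225 falls. The smallest change also fell most often to mtAsn-2 LNA, in 454 rises and 404 falls. For mtAsn-1 LNA this was so in 187 rises and 185 falls, and for mtLys LNA in 249 rises and 355 falls. SENP2, a SUMO protease, had 62.7, 63.4 and 64.7 CPM in the mtAsn-1 LNA libraries, 29.1, 28.02 and 29.4 CPM in the mtAsn-2 LNA libraries and 62.9, 65.97 and 68.7 CPM in the mtLys LNA libraries, against 74.9, 74.2 and 76.1 CPM in the control LNA libraries. The mtAsn-2 LNA libraries were far below control, while the other LNA libraries were only slightly below it. The same pattern was seen in LASP1, an actin-binding scaffold (-0.20 under mtAsn-1 LNA, -0.99 under mtAsn-2 LNA and -0.13 under mtLys LNA), and in SPIRE1, an actin nucleator (-0.19 under mtAsn-1 LNA, -1.41 under mtAsn-2 LNA and -0.11 under mtLys LNA), whose call in the mtLys LNA group was marginal (adjusted p = 0.0446). The shared call of SPIRE1 ended with DESeq2, with no filter, at an adjusted p under 0.01, and without mtAsn-1 replicate 3, mtAsn-2 replicate 2 or any 1 of the mtLys or control libraries. PROCR, the endothelial protein C receptor, rose most with mtAsn-2 LNA (0.63 under mtAsn-1 LNA, 1.46 under mtAsn-2 LNA and 0.48 under mtLys LNA), as did FBXO27, a glycoprotein-binding F-box protein (0.27 under mtAsn-1 LNA, 1.08 under mtAsn-2 LNA and 0.32 under mtLys LNA). Treating the 9 libraries as 1 group, and so counting these differences as spread, the equally weighted calls of SENP2, LASP1, SPIRE1 and FBXO27 were lost (adjusted p = 0.192, 0.174, 0.276 and 0.0550). Of the 560 genes with mixed signs, 404 were higher with mtAsn-1 and mtLys LNA and lower with mtAsn-2 LNA, and 143 had the reverse pattern.

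Among the longest protein-coding genes, shared rises outnumbered shared falls. Protein-coding genes were split into 10 deciles by the length of the genome they span. In the decile with the longest spans, 160786 to 2173527 bases, 17.5% were higher and 3.89% lower in all 3 groups, and 12.4% were called in all 3 with mixed signs. In the decile with the shortest spans, 9.56% were higher and 12.7% lower, and 2.49% had mixed signs. The share of falls was 14.4% to 16.2% in the second to eighth deciles and 9.80% in the ninth, so it did not change steadily with span. Over all protein-coding genes, 12.3% were higher, 13.2% lower and 4.23% mixed. The median log2 fold change in the longest decile was 0.27 with mtAsn-1 LNA, -0.05 with mtAsn-2 LNA and 0.27 with mtLys LNA, so the shift upward was not common to all 3 LNAs. Median expression of that decile was a log2 CPM of 4.22, against 4.26 in the shortest decile. These are descriptions, with no test between deciles.

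**Figure D5:**
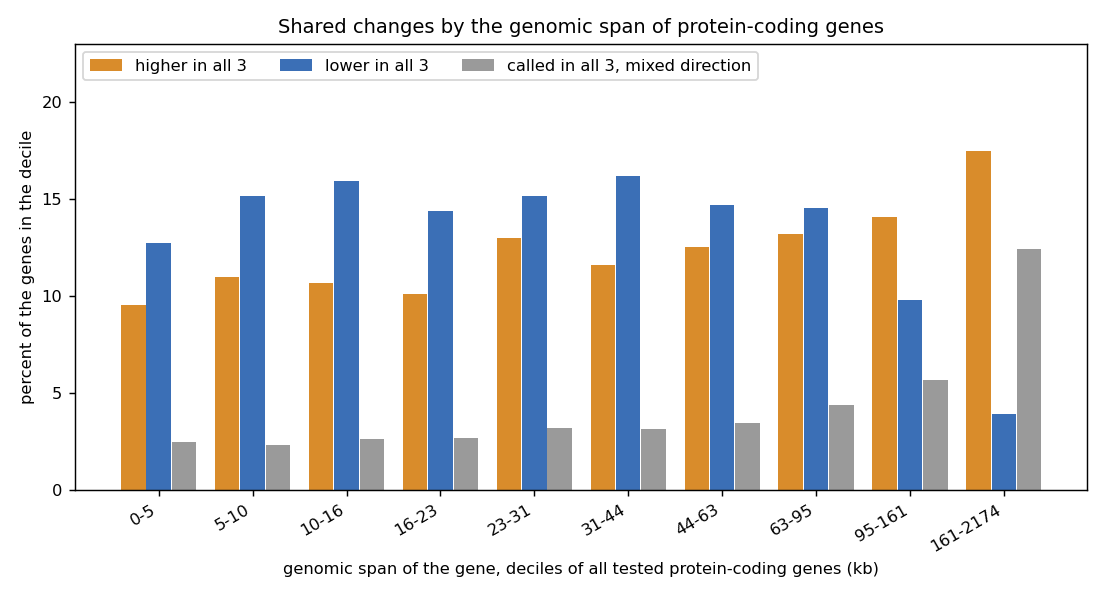
Percent of protein-coding genes that were higher in all 3 LNA groups, lower in all 3, or called in all 3 with mixed signs, in deciles of genomic span (kilobases). The longest decile has the tallest bar for rises (17.5%) and for mixed signs (12.4%) and the shortest for falls (3.89%).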

How the data were processed

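RNA-seq was done on 12 libraries in 4 groups of 3, assigned by the labels. The deposited values are raw read counts per gene in 1 table, with no normalisation. FastQC, STAR 2.6.0a, featureCounts, DESeq2 and hg38 are listed, without roles, in the submitters' processing notes. The kit was TruSeq RNA v2, per the labels' protocols; the strand setting of the counting was not given in the sources used here. Of 52897 lines, 52859 genes were used, and 12 genes with broken lines and 26 fragments of lines were left out.

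Counts were tested with edgeR 4.0.16 (R 4.3.3), using TMM factors, filterByExpr with a minimum count of 10 and a minimum total of 15, and the robust quasi-likelihood F test. All 12 libraries shared the fit, without a block, and p-values were adjusted by Benjamini-Hochberg over 16051 genes. The contrasts were each LNA group against control, the equally weighted mean of the 3 against control, and the difference among the LNA groups. The error printed with ± beside a log2 fold change is the SE, calculated back as its size over the square root of F. The script was tested on simulated data. The settings varied were the scaling (RLE factors), the tool (DESeq2 1.42.0), the filter (none, or stricter), the threshold (0.01), a replicate block, the grouping of the libraries, and each library left out in turn.

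The least change of a gene is the smallest of its 3 group changes. Named genes were the 10 rises and 10 falls with the largest least change among shared protein-coding genes whose libraries did not overlap control and whose log2 CPM averaged 2 or more; 3 and 3 such genes of other kinds; up to 2 per direction and list; the 4 largest with mixed signs; the 3 and 3 that differed most among the LNA groups and the 3 and 3 largest not called different; and MT-TN, MT-TK, NARS2 and KARS1. A few genes that these rules name are not reported here. Other list members and SNHG genes were picked after their values were seen. The comparison, members and lists were chosen with earlier results of these data known. Where RefSeq gave no type, a gene was counted as protein-coding unless its name marked it otherwise (LOC, LINC, MIR, SNOR or an antisense ending). Gene types and promoters came from RefSeq (GRCh38.p14; promoters of 10463 tested genes matched) and tRNA sequences from GENCODE.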

Additional observations from a re-analysis of the deposited data

Results flagged for a closer look

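Of the 4 genes with the largest least change among those called in all 3 LNA groups with mixed signs, 3 are given, and each of these differed among the LNA groups by the edgeR F test. SPINK4, a secreted protease inhibitor of the Kazal type, had log2 fold changes of -1.25 under mtAsn-1 LNA, -1.99 under mtAsn-2 LNA and 1.03 under mtLys LNA (adjusted p for the difference = 1.73e-07), and it did not exceed 0.791 CPM in any tRNA LNA library. LOC105372926, a long non-coding RNA, changed by 0.95 under mtAsn-1 LNA, -0.93 under mtAsn-2 LNA and 1.30 under mtLys LNA (adjusted p = 1.61e-09). DCLK1, a microtubule-associated kinase, had 5.81, 4.92 and 4.56 CPM in the mtAsn-1 LNA libraries, 1.65, 1.47 and 1.58 CPM in the mtAsn-2 LNA libraries and 6.20, 7.21 and 4.95 CPM in the mtLys LNA libraries, against 2.61, 3.09 and 3.37 CPM in the control LNA libraries. The mtAsn-2 LNA libraries of DCLK1 lay below control and the other LNA libraries above it (adjusted p for the difference = 1.73e-11). Its equally weighted log2 fold change of 0.29 ± 0.13 was not called by edgeR (adjusted p = 0.064). DCLK1 overlaps a gene on the opposite strand.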

How the results depend on the processing

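No named gene changed the sign of its equally weighted log2 fold change under any setting tried. Of 2528 values of 141 genes, 2510 stayed on the same side of the threshold, 11 lost the call and 7 gained it. Most of these genes were chosen for their shared change, and 136 were called in the main fit, so this stability was largely set in advance. It concerns the equally weighted call. The shared call was kept in every leave-one-out fit by 67.5% of the shared rises and 69.1% of the shared falls. RLE factors gave 1758 shared rises and 2004 shared falls. DESeq2 gave 1605 and 1790, of which 1595 and 1788 were the same genes as with edgeR. Counts that moved by over 1.5 times were the shared changes of at least 2-fold under the stricter filter (21 higher and 31 lower), the mixed genes and the shared genes that differ among the LNA groups at an adjusted p under 0.01 (325 and 1008), and the calls of LNA against control with the 9 tRNA LNA libraries as 1 group (2317 higher and 2558 lower). Leaving out 1 library gave 1441 to 1712 shared rises and 1739 to 2067 shared falls, both lowest without control replicate 2. Of at least 2-fold there were 71 to 96 rises and 242 to 269 falls, with 438 to 602 mixed genes and 1469 to 1773 shared genes that differ among the LNA groups. The equally weighted contrast then called 3383 to 4055 genes higher and 3707 to 4364 lower. The log2 CPM difference was 0.32 to 0.44 for MT-TK, with 0.33 and 0.34 and no call without control replicate 2 or 3, and -0.70 to -0.39 for MT-TN. With the replicate number as a block, 1654 rises and 1949 falls were shared, 1647 and 1938 of them the same genes, and the shared calls of ATF4 and SPIRE1 ended. The numbers are not shown to pair the samples: deviations from the group means correlated at -0.33 to 0.15 for libraries with the same number (median -0.03, 18 pairs) and at -0.33 to 0.41 for the others (median 0.06, 36 pairs). Depth limits weakly expressed genes, which include most shared changes of at least 2-fold, and MT-TN, with 24 reads in the tRNA LNA and 11 in the control libraries.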
